A study of Mus musculus with 31 samples.

Results

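Aminoacyl-tRNA synthetases are the enzymes that load each transfer RNA (tRNA) with its amino acid, the step that supplies the ribosomes with building blocks. Mammalian cells make nuclear-encoded enzymes for the cytosol and for the mitochondrion, and most of the mitochondrial ones have genes of their own, with names that end in 2. Several cytosolic enzymes sit in a multi-synthetase complex held together by scaffold proteins, among them the products of Aimp1 and Aimp2. In the uterus, estrogen is known to set off water uptake, protein synthesis and growth.

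This gene family was chosen for description with earlier results of these data known, and its members were taken by name from the array annotation. They are 20 cytosolic enzymes, 16 mitochondrial enzymes and 2 scaffold genes, 38 of the 27071 genes that could be tested. The members have 48 probes on the array. A gene is represented by its brightest probe, and all 38 passed the filter on dim probes. That probe was well above background on 31 of 31 arrays for each member except Nars2, the mitochondrial asparaginyl enzyme, with 27. Gars and Kars count as cytosolic here, although both genes are known to supply mitochondria as well.

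Uterine RNA of ovariectomised mice was read on 31 one-colour arrays, 1 per sample. Ovaries were removed at 4 weeks of age, and after 3 weeks of rest the animals received castor oil under the skin, with 8 µg/kg of 17β-estradiol (E2) or without it (placebo), for 6 h. Wild-type (AF2 WT) and mutant (AF2 KO) animals of the AF2 line are labelled C57BL6/J, and those of the MISS line (MISS WT, MISS KO) C57BL6/N. That makes 8 groups, with 3 arrays for AF2 KO under E2 and 4 for every other group. From knowledge outside the labels, the AF2 mutation removes activation function 2 of estrogen receptor α (gene Esr1), which recruits coactivators, and the MISS mutation leaves a receptor that is missing from the membrane. All groups share the loss of the ovaries. The labels do not say whether an array holds 1 animal or several, so the p-values measure the spread between these samples only.

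A level is the log2 signal of a probe minus the 75th percentile of its array. A change is a difference of group means with its standard error (SE), from a linear model fitted with limma to all 27071 genes. A gene was called when its p, adjusted by Benjamini-Hochberg over all genes of the comparison, was under 0.05. Levels of different probes are not set against each other. Precision is limited by the number of arrays. The 75th percentile lay between 475 and 918 intensity units, the share of probes well above background between 61.8 and 77.1%, and 0 spots reached saturation. The arrays lay on 4 slides, each with 1 array of every group, except that 1 slide had none of AF2 KO with E2. Esr1 lay at 3.24 to 3.54 in AF2 WT with placebo and at 2.88 to 3.06 in AF2 KO with placebo, a level that does not check the genotype because the place of the deletion was not compared with the probe.

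The sequences near the start sites are shown because a motif known from amino acid stress lies in some cytosolic members and in 0 of the mitochondrial ones searched. It is the C/EBP-ATF response element (CARE), TGATGNAAN, a known binding motif of the transcription factor ATF4. Both strands were searched from 250 bases before to 50 bases after each start site in RefSeq promoters on GRCm38.p6. The windows searched belong to 27025 genes, among them 29 members: 13 cytosolic, 14 mitochondrial and both scaffold genes. Hars, Lars, Nars and Hars2 lie on the same chromosome, which was left out of the search, so their windows were not read. Cars, Rars, Vars, Wars and Pars2 were not matched. CARE was found in 5 of the 13 cytosolic windows (38.5%), in 0 of the 14 mitochondrial windows and in 4.5% of all windows. A match of each gene follows in a stretch of 29 bases, with CARE in capitals, on the strand that reads TGATG.
Aars, chr8:111033840-111033868, minus strand: cagagcgctcTGATGAAAAgtgacccgct
Gars, chr6:55037960-55037988, minus strand: gcccggtgcaTGATGAAATagcgcagcca
Iars, chr13:49682126-49682154, minus strand: cgtctggaggTGATGCAATactgacagtg
Tars, chr15:11399656-11399684, plus strand: gctaaccagcTGATGCAACgggactcctg
Yars, chr4:129189896-129189924, plus strand: cgagctcagcTGATGCAACccgacgggac

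The E-box CACGTG was found in Aars, Farsb, Iars and Tars (30.8% of the cytosolic windows), in Ears2 (7.14% of the mitochondrial windows) and in 8.09% of all windows. The full estrogen response element, GGTCA and TGACC with 3 free bases between them, was found in 0 member windows and in 0.074% of all windows. A match describes the letters of a window and says nothing about binding. The 250 bases before the start site are given for Tars, which holds a CARE there, and for Yars2, the mitochondrial enzyme with the largest change, which does not. They run on the strand of the gene, with CARE, read there on the opposite strand, in capitals.
Tars, chr15:11399659-11399908, minus strand: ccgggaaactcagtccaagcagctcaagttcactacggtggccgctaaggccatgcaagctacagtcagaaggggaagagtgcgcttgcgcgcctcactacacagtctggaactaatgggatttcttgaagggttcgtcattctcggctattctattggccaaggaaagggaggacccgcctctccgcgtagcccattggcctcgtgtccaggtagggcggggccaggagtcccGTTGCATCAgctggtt
Yars2, chr16:16302715-16302964, plus strand: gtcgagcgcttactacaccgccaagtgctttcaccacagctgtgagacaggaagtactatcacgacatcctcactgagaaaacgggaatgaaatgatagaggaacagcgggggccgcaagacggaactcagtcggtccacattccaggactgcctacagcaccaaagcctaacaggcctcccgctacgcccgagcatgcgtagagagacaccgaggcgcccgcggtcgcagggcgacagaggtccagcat

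The first comparison asked what E2 did to these genes in the wild-type uterus of the AF2 line. The cytosolic enzymes rose almost as a whole class, whereas the mitochondrial enzymes split into genes that rose, genes that fell and genes that were not called. Of the 20 cytosolic enzymes, 19 were called higher and 0 lower, and 17 were at least 2-fold higher. Over all genes tested, 27.6% were called higher, 30% lower (57.6% in either direction), and 11% at least 2-fold higher. The median change of the cytosolic enzymes was 1.76, against −0.07 over all genes. Of the 16 mitochondrial enzymes, 6 rose, 3 fell and 7 were not called, with a median of −0.05. In this fit, their share called in either direction and their median were close to those of all genes. Under quantile normalization 7 mitochondrial enzymes were called higher and 7 lower, and the authors' values gave 7 and 6. Over all genes, quantile normalization called 7614 of 27071 higher and 8426 lower, and the authors' values 7642 and 8378 of 28875. Under both, the mitochondrial share called in either direction lay above that of all genes. Aimp2 was called higher and Aimp1 was not called.

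**Figure D1:**
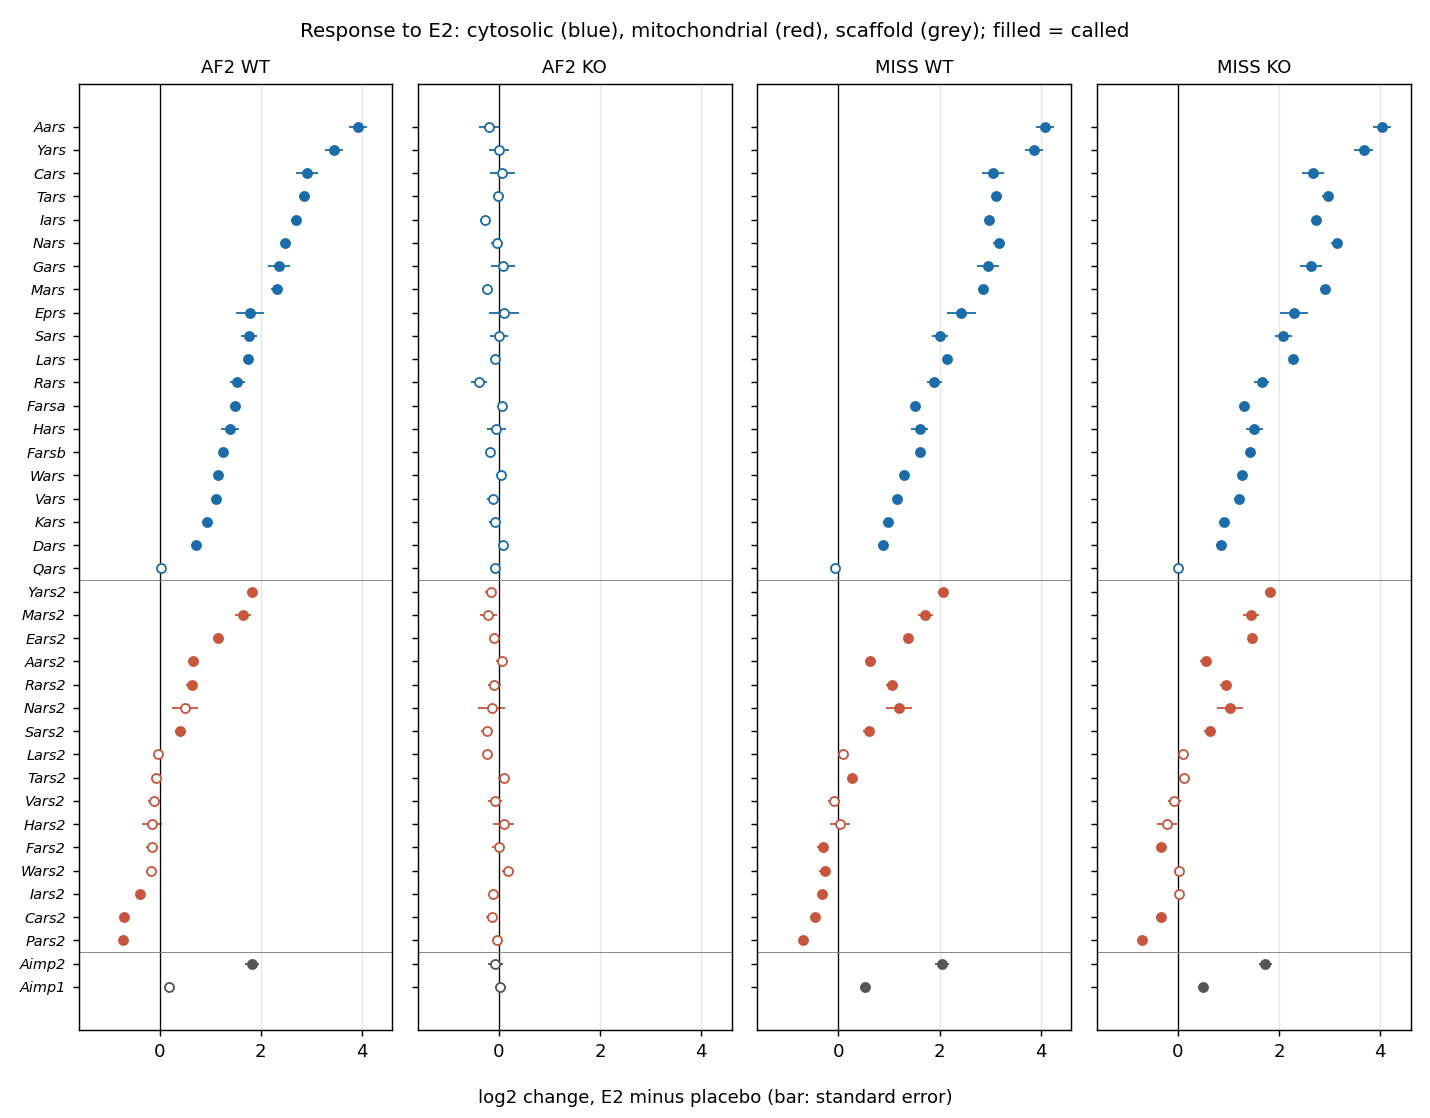
Log2 change from placebo to E2 for the 38 members in AF2 WT, AF2 KO, MISS WT and MISS KO, with standard errors. In AF2 WT the cytosolic enzymes run from 0.03 for Qars to 3.92 for Aars and the mitochondrial enzymes from −0.71 for Pars2 to 1.83 for Yars2, while in AF2 KO 0 of the 38 members were called.

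Aars, the alanyl enzyme, changed most. Its level was 2.31, 2.12, 2.01 and 1.85 on the placebo arrays of AF2 WT and 6.25, 6.04, 6.02 and 5.65 on the E2 arrays. The groups lay far apart, with a change of 3.92 ± 0.18 or 15.1-fold (limma adjusted p = 9.35e-16). Its probe lies at chr8:113579376-113579434 of mm9, the build of the array annotation, which does not name the exon. Yars, the tyrosyl enzyme (chr4:128896792-128896851), lay at −3.52, −2.97, −3.20 and −3.39 with placebo and at 0.48, 0.08, 0.38 and −0.23 with E2. Every E2 array lay above every placebo array, and the change was 3.45 ± 0.18 or 10.9-fold (limma adjusted p = 1.31e-14).

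Cars, the cysteinyl enzyme (chr7:150743615-150743674), had placebo levels of 3.22, 3.10, 3.07 and 2.62 and E2 levels of 6.31, 5.86, 6.07 and 5.42. The groups did not overlap, and Cars rose by 2.91 ± 0.22 or 7.53-fold. Tars, the threonyl enzyme (chr15:11313527-11313586), went from 2.64, 2.41, 2.64 and 2.45 to 5.45, 5.40, 5.59 and 5.15, a change of 2.86 ± 0.11. Iars, the isoleucyl enzyme (chr13:49829328-49829387), went from 2.08, 2.18, 1.93 and 2.19 to 4.70, 4.82, 4.65 and 4.97. Its change of 2.69 ± 0.09 was known more closely than that of Cars, with a limma adjusted p of 1.45e-18. Nars, the asparaginyl enzyme, lay at 1.29, 1.39, 1.53 and 1.47 with placebo and at 3.85, 3.81, 3.84 and 4.11 with E2, a change of 2.49 ± 0.11. Each of these 6 enzymes was higher with E2 on 4 of 4 slides, with Aars at 3.80 to 4.01 and Yars at 3.05 to 4.00 within a slide.

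The other called cytosolic enzymes formed a graded series. Gars, the glycyl enzyme, changed by 2.36 ± 0.22 and Mars, the methionyl enzyme, by 2.31 ± 0.10. Eprs, whose product charges both glutamate and proline, followed with 1.78 ± 0.28, the widest error of the class. Sars (seryl) and Lars (leucyl) changed by 1.77 ± 0.16 and 1.75 ± 0.08. Rars, Farsa, Hars, Farsb, Wars and Vars, which serve arginine, phenylalanine, histidine, tryptophan and valine, lay between 1.11 and 1.54. Farsa and Farsb encode the subunits of the same phenylalanyl enzyme and rose by 1.48 ± 0.09 and 1.25 ± 0.08. Kars (lysyl, 0.94 ± 0.10) and Dars (aspartyl, 0.72 ± 0.09) had the smallest called changes. The probes of Kars, Rars and Wars each share a stretch of 16 bases or more with 1 other probe of the array. A second Wars probe without such a stretch changed by 1.06 ± 0.13, and the other Farsa probes changed by 1.35 ± 0.08 and 1.16 ± 0.15.

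Qars, the glutaminyl enzyme (chr9:108417534-108418156), was the cytosolic enzyme that was not called. Its levels were 4.27, 4.25, 4.29 and 4.16 with placebo and 4.31, 4.43, 4.27 and 4.07 with E2, so the groups overlapped. The change was 0.03 ± 0.08 (95% interval −0.15 to 0.20, limma adjusted p = 0.817) and positive on 2 of 4 slides. Its sign depended on the scaling, since quantile normalization and the authors' value table both gave −0.43, which was then called.

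**Figure D2:**
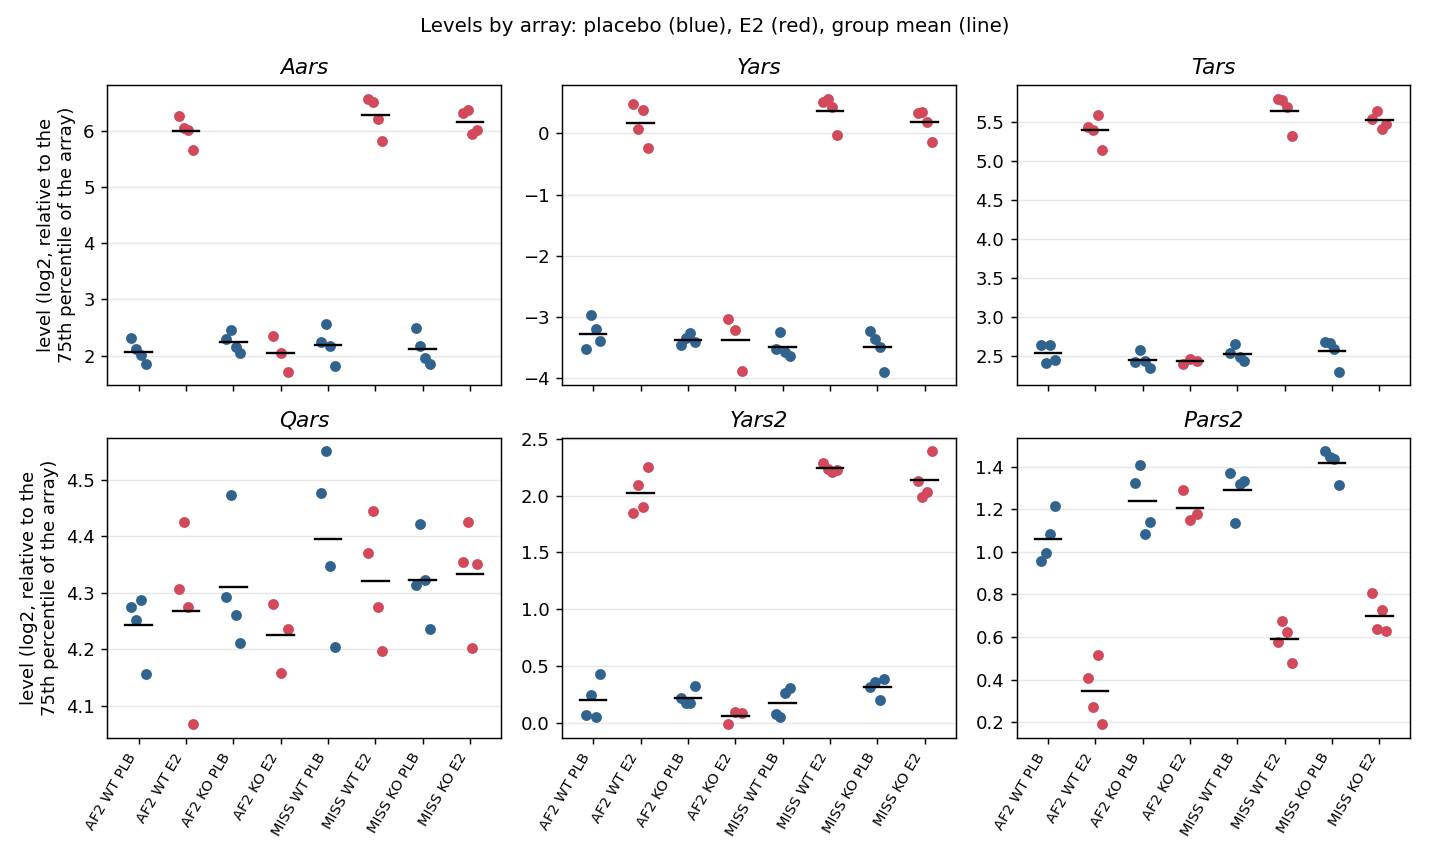
Level of Aars, Yars, Tars, Qars, Yars2 and Pars2 on each array of the 8 groups, in log2 units relative to the 75th percentile of the array; the vertical axes differ between panels. Aars, Yars, Tars and Yars2 are high on the E2 arrays of AF2 WT, MISS WT and MISS KO and not on those of AF2 KO, Pars2 runs the other way, and Qars overlaps between E2 and placebo in AF2 WT.

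Among the mitochondrial enzymes, 3 rose at least 2-fold. Yars2, the tyrosyl enzyme (chr16:16307393-16307452), lay at 0.07, 0.25, 0.05 and 0.43 with placebo and at 1.85, 2.10, 1.90 and 2.25 with E2, a change of 1.83 ± 0.10 or 3.55-fold. Mars2, the methionyl enzyme (chr1:55295642-55295701), was dim and went from −3.64, −3.90, −3.79 and −3.18 to −2.17, −1.89, −2.07 and −1.79, a change of 1.65 ± 0.15. Neither gene had overlapping groups. Ears2, the glutamyl enzyme (chr7:129182565-129182624), went from −0.16, −0.41, −0.56 and −0.23 to 0.76, 0.91, 0.76 and 0.81, a change of 1.15 ± 0.08. Aars2 (0.67 ± 0.11), Rars2 (0.63 ± 0.11) and Sars2 (0.41 ± 0.11) also rose, the last with overlapping groups.

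Pars2, Cars2 and Iars2 fell. Pars2, the prolyl enzyme of mitochondria (chr4:106327826-106327885), lay at 0.96, 0.99, 1.08 and 1.21 with placebo and at 0.41, 0.27, 0.52 and 0.19 with E2. Its change was −0.71 ± 0.09 (limma adjusted p = 5.09e-08), without overlap, and its second probe changed by −0.48 ± 0.16. Cars2, the cysteinyl enzyme (chr8:11516152-11516211), went from 1.32, 1.16, 1.11 and 1.32 to 0.41, 0.64, 0.40 and 0.65, a change of −0.70 ± 0.10. The second Cars2 probe moved the same way, by −1.18 ± 0.09. Iars2, the isoleucyl enzyme (chr1:187111041-187111948), went from 1.27, 1.13, 0.91 and 1.13 to 0.73, 0.71, 0.64 and 0.78, a change of −0.40 ± 0.07, and its second probe gave −0.36 ± 0.10. All 3 were lower on 4 of 4 slides.

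The 7 mitochondrial enzymes that were not called serve asparagine, leucine, threonine, valine, histidine, phenylalanine and tryptophan. Nars2 was near the edge of detection, at −4.40, −5.60, −4.95 and −4.75 with placebo and −5.02, −4.02, −4.42 and −4.22 with E2, a change of 0.51 ± 0.25 (limma adjusted p = 0.0881). Lars2 lay at 1.65, 1.48, 1.39 and 1.42 and then at 1.44, 1.64, 1.33 and 1.41. Its groups overlapped, and the change was −0.03 ± 0.08. Tars2 went from 3.34, 3.31, 3.58 and 3.36 to 3.36, 3.23, 3.56 and 3.17 (−0.07 ± 0.09), and Vars2 from 0.53, 0.33, 0.36 and 0.03 to 0.24, 0.34, 0.21 and 0.04 (−0.10 ± 0.12). The valyl enzyme of the cytosol, by comparison, was among the genes that rose. Hars2, whose probe shares stretches with 6 other probes, went from 2.85, 2.84, 2.85 and 2.27 to 2.70, 2.73, 2.64 and 2.16 (−0.14 ± 0.20). Fars2 went from 2.99, 2.94, 2.88 and 2.55 to 2.86, 2.58, 2.77 and 2.52 (−0.16 ± 0.12), and was called lower with the slide as a block (limma adjusted p = 0.0448). Wars2, the tryptophanyl enzyme, went from −0.39, −0.49, −0.12 and −0.24 to −0.52, −0.33, −0.67 and −0.38 (−0.16 ± 0.10), with overlap.

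The scaffold genes moved apart. Aimp2 (chr5:144663574-144663633) lay at 3.71, 3.53, 3.63 and 3.36 with placebo and at 5.42, 5.50, 5.51 and 5.12 with E2, a change of 1.83 ± 0.13. Aimp1 (chr3:132323509-132323568) lay at 3.43, 3.42, 3.44 and 3.04 with placebo and at 3.50, 3.59, 3.69 and 3.25 with E2, a change of 0.18 ± 0.09 (limma adjusted p = 0.109). Aimp1 was higher with E2 on 4 of 4 slides and was called higher with the slide as a block (0.18, limma adjusted p = 0.0174) and under another background correction, normexp (0.19, limma adjusted p = 0.0409). It was called lower under quantile normalization (−0.20, limma adjusted p = 0.0141) and in the authors' value table (−0.20, limma adjusted p = 0.011). Of the 8 enzymes known to sit in the complex (Eprs, Iars, Lars, Mars, Qars, Rars, Kars and Dars, a grouping made after the values were seen), 7 rose, with a median of 1.64 and a range of 0.03 to 2.69. The 12 other cytosolic enzymes all rose, with a median of 2.07 and a range of 1.11 to 3.92. Qars was the enzyme of the complex that was not called. Over all genes 27.6% were called higher and 30% lower.

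The mean level of each class on an array showed the same separation. Over the cytosolic enzymes it was 1.72 ± 0.03 (SD, n = 4) in AF2 WT with placebo and 3.61 ± 0.07 (SD, n = 4) with E2. Over the mitochondrial enzymes it was 0.38 ± 0.07 (SD, n = 4) with placebo and 0.65 ± 0.06 (SD, n = 4) with E2. The mitochondrial mean was higher with E2 although the median member changed by −0.05. Within a slide, the median change of the cytosolic enzymes was 1.69 to 1.84 and that of the mitochondrial enzymes −0.13 to 0.16.

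**Figure D3:**
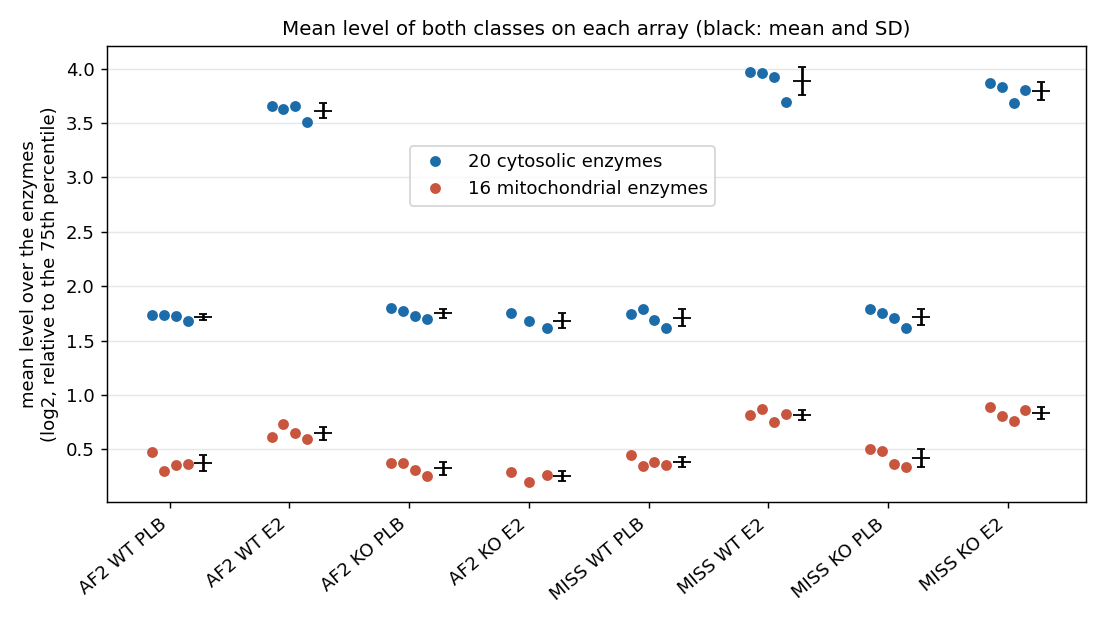
Mean level of the 20 cytosolic and of the 16 mitochondrial enzymes on each array of the 8 groups, in log2 units relative to the 75th percentile of the array. The cytosolic mean is 3.51 to 3.66 on the AF2 WT E2 arrays and 1.62 to 1.76 on the AF2 KO E2 arrays and 1.72 on average with placebo in AF2 WT.

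Both classes could be compared for the same amino acid in 14 pairs of genes, through the log2 ratio of the cytosolic to the mitochondrial probe on each array. In AF2 WT the ratio rose in 14 of 14 pairs, with no overlap between E2 and placebo arrays. How often ratios of other gene pairs separate in this way was not computed, and 57.6% of all genes were called there by limma. Each pair gave an exact two-sided permutation p of 0.0286, the smallest that 4 against 4 arrays allow, which is 0.0286 after adjustment over the 14 pairs. The shift was largest for cysteine (Cars over Cars2, 3.61 ± 0.30), alanine (3.25 ± 0.14), isoleucine (3.08 ± 0.08) and threonine (2.93 ± 0.07). It was smallest for methionine (0.66 ± 0.12) and arginine (0.91 ± 0.24), where the mitochondrial gene rose too. Under quantile normalization the methionine shift was 0.22, with overlapping groups and an adjusted exact permutation p of 0.143. Under normexp the methionine shift was 1.31 and the smallest shifts were those of arginine (0.56) and tyrosine. The tyrosine shift went from 1.62 to 0.69, with overlapping groups and an adjusted exact permutation p of 0.0571. In MISS WT the shifts ran from 0.83 (arginine) to 3.52 (cysteine), and in MISS KO from 0.71 (arginine) to 3.49 (alanine). Under normexp the arginine shift in MISS KO was 0.49, with overlapping groups and an adjusted exact permutation p of 0.114. In AF2 KO they ran from −0.30 to 0.23, and the lowest adjusted exact permutation p was 0.532.

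**Figure D4:**
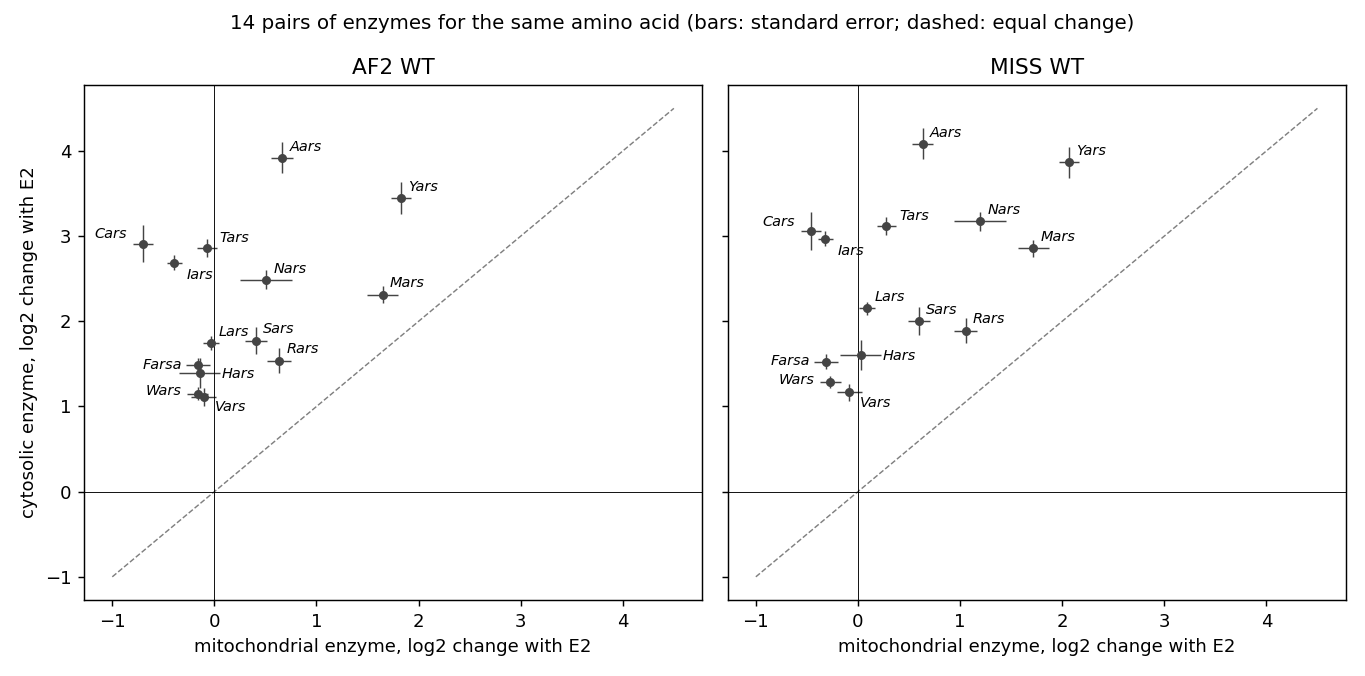
E2 change of the cytosolic enzyme against that of the mitochondrial enzyme for the same amino acid, in log2 units, for 14 pairs. In AF2 WT the ratio of the 2 changed by 0.66 (methionine) to 3.61 (cysteine).

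The AF2 mutant tested whether these responses need activation function 2 of the receptor. In AF2 KO, 0 of 38 members were called between E2 and placebo by limma, against 3.68% of all genes. At an unadjusted p under 0.05 (limma) there were 3 cytosolic enzymes and 1 mitochondrial enzyme, against 4692 of all 27071 genes. Aars lay at 2.29, 2.45, 2.15 and 2.05 with placebo and at 2.35, 2.05 and 1.71 with E2, an overlap and a change of −0.19 ± 0.20. Yars lay at −3.03, −3.21 and −3.87 on the E2 arrays (change −0.00 ± 0.20). The changes of the members ran from −0.39 for Rars (limma adjusted p = 0.196) to 0.17 for Wars2. The 95% interval lay within 2-fold for 20 of 20 cytosolic and 16 of 16 mitochondrial enzymes, from −0.72 for Rars to 0.72 for Eprs. With the slide as a block, Iars (−0.26, limma adjusted p = 0.0304) and Lars2 (−0.23, limma adjusted p = 0.0249) were called lower. That fit called 2154 of all 27071 genes higher and 621 lower, against 847 and 150 without the block.

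A contrast of the 2 responses, mutant minus wild type, was tested next in the AF2 line. It was called lower for 19 of 20 cytosolic enzymes, 18 of them at least 2-fold, against 22.9% of all genes called lower, 11.5% at least 2-fold lower and 29% called higher (51.9% in either direction). It ran from −4.11 ± 0.27 for Aars and −3.45 ± 0.27 for Yars to −0.63 ± 0.13 for Dars, with Qars at −0.11 ± 0.12 (limma adjusted p = 0.476). Under quantile normalization the value for Qars was 0.35. Of the mitochondrial enzymes, 6 were lower, with Yars2 at −1.99 ± 0.14, Mars2 at −1.86 ± 0.23 and Ears2 at −1.24 ± 0.12, and Rars2, Sars2 and Aars2 between −0.73 and −0.61. For the 3 that fell in AF2 WT the difference was positive: Pars2 at 0.68 ± 0.13, Cars2 at 0.56 ± 0.15 and Iars2 at 0.28 ± 0.11. The call for Iars2 was lost under normexp (limma adjusted p = 0.0521), with the groups compared alone (limma adjusted p = 0.0672), and without replicate 1 of AF2 WT with placebo, replicate 3 of AF2 WT with E2, or replicate 1 or 2 of AF2 KO with E2 (limma adjusted p = 0.0521 to 0.0809). Hars2 (0.30) and Wars2 (0.35) were called higher too with the slide as a block. That fit called 9581 of all 27071 genes higher and 7314 lower, against 7851 and 6209 without the block. Pars2 lay at 1.32, 1.41, 1.08 and 1.14 in AF2 KO with placebo and at 1.29, 1.15 and 1.18 with E2. Its E2 arrays fell inside the range of its placebo arrays. Aimp2 differed by −1.90 ± 0.20, and Aimp1 by −0.15 ± 0.14 (limma adjusted p = 0.387).

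Without hormone, differences between the AF2 genotypes were small. Between AF2 KO and AF2 WT with placebo, 0 of 38 members were called by limma, against 9.04% of all genes. At an unadjusted p under 0.05 (limma) there were 3 cytosolic and 4 mitochondrial enzymes, against 6045 of all 27071 genes. With the slide as a block, Iars (0.26, limma adjusted p = 0.0103) and Farsb (0.19, limma adjusted p = 0.0414) were called higher, and Ears2 (−0.26), Wars2 (−0.29) and Vars2 (−0.28) lower. That fit called 1810 of all 27071 genes higher and 3644 lower, against 913 and 1535 without the block. Under E2, AF2 KO was lower than AF2 WT in 19 cytosolic and 7 mitochondrial enzymes and higher in 3 mitochondrial ones, against 26.9% of all genes lower and 30.1% higher (57% in either direction). The medians were −1.76 and −0.21. Iars2 (higher) and Nars2 (lower) lost their calls with the groups compared alone (limma adjusted p = 0.116 and 0.0802) and without replicate 1 of AF2 KO with E2 (limma adjusted p = 0.0554 and 0.181). Iars2 also lost it without replicate 2 of AF2 KO or replicate 3 of AF2 WT with E2, and Nars2 under normexp and without replicate 2 of AF2 WT with E2. The slide as a block added Fars2 (0.21) and Hars2 (0.23) to the higher enzymes and Vars2 (−0.24) to the lower ones. Over all 27071 genes it called 9346 higher and 8331 lower, against 8143 and 7274 without the block.

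In the MISS line, the wild type repeated the split between the classes. In MISS WT, 19 of 20 cytosolic enzymes rose, 17 at least 2-fold, against 35.1% of all genes called higher, 27.1% lower (62.2% in either direction) and 15.4% at least 2-fold higher. The cytosolic median was 2.08, against 0.16 over all genes. Aars lay at 2.24, 2.55, 2.17 and 1.81 with placebo and at 6.57, 6.52, 6.21 and 5.82 with E2, a change of 4.08 ± 0.18. Qars again had overlapping groups, at 4.48, 4.55, 4.35 and 4.20 and then 4.37, 4.44, 4.28 and 4.20, a change of −0.07 ± 0.08 (limma adjusted p = 0.468). Of the mitochondrial enzymes, 8 rose, 5 fell and 3 were not called, with a median of 0.18. Under quantile normalization this median was −0.12, with 7 called higher and 4 lower, and with the authors' value table −0.09, again 7 and 4. Over all genes, quantile normalization called 8502 of 27071 higher and 8552 lower, and the authors' values 8415 and 8577 of 28875.

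The mitochondrial enzymes called higher in MISS WT included Yars2 (2.07 ± 0.10), Mars2 (1.72 ± 0.15) and Ears2 (1.38 ± 0.08). Nars2 went from −4.92, −5.26, −4.85 and −4.96 to −3.87, −3.73, −3.97 and −3.65, without overlap, a change of 1.20 ± 0.25 (limma adjusted p = 0.000172). Tars2 went from 3.42, 3.19, 3.29 and 3.40 to 3.56, 3.50, 3.70 and 3.67, a change of 0.28 ± 0.09 that turned to −0.19 under quantile normalization. Pars2 fell again, from 1.37, 1.13, 1.32 and 1.33 to 0.58, 0.68, 0.63 and 0.48 (−0.70 ± 0.09). Cars2 went from 1.28, 1.03, 1.07 and 1.15 to 0.73, 0.56, 0.49 and 0.90 (−0.46 ± 0.10). Iars2 went from 0.93, 1.02, 1.14 and 1.12 to 0.59, 0.85, 0.67 and 0.83 (−0.32 ± 0.07). None of these 3 had overlapping groups. Fars2 went from 3.08, 3.03, 2.97 and 2.82 to 2.79, 2.78, 2.46 and 2.62 (−0.31 ± 0.12, limma adjusted p = 0.0229). Its call was lost without replicate 1 or 2 with placebo or replicate 3 with E2 (limma adjusted p = 0.0522 to 0.0937). Wars2 went from −0.44, −0.54, −0.59 and −0.44 to −0.80, −0.55, −0.96 and −0.78 (−0.27 ± 0.10, limma adjusted p = 0.0272), with overlapping groups. The call for Wars2 was lost under quantile normalization (limma adjusted p = 0.084), in the authors' value table (limma adjusted p = 0.0702), with the groups compared alone (limma adjusted p = 0.0606), and without replicate 1 or 4 with placebo or replicate 1 or 3 with E2 (limma adjusted p = 0.0547 to 0.109). Aimp1 went from 3.45, 3.43, 3.35 and 3.36 to 3.97, 3.96, 3.96 and 3.80 (0.52 ± 0.09), and Aimp2 rose by 2.05 ± 0.13. Aimp1 was not called under quantile normalization (0.025, limma adjusted p = 0.761) or in the authors' value table (0.0095, limma adjusted p = 0.911).

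The MISS mutant asked whether the receptor at the membrane is needed. In MISS KO, 19 of 20 cytosolic enzymes rose, 17 at least 2-fold, against 30.1% of all genes called higher, 27.2% lower (57.3% in either direction) and 12.9% at least 2-fold higher. The cytosolic median was 2.18, against 0.03 over all genes. Aars lay at 2.48, 2.17, 1.96 and 1.86 with placebo and at 6.31, 6.36, 5.95 and 6.01 with E2, a change of 4.04 ± 0.18. Of the mitochondrial enzymes 7 rose, 3 fell (Pars2 by −0.72 ± 0.09, Cars2 by −0.32 ± 0.10 and Fars2 by −0.32 ± 0.12) and 6 were not called, with a median of 0.11. Under quantile normalization 7 were called higher and 5 lower, and the authors' values gave 7 and 4. Over all genes, quantile normalization called 7690 of 27071 higher and 8029 lower, and the authors' values 7606 and 7923 of 28875. Fars2 was not called in MISS KO without replicate 1 or 2 with placebo or replicate 4 with E2 (limma adjusted p = 0.0566 to 0.0875), and with the slide as a block Hars2 was called lower too (−0.21). The order of the members varied little between AF2 WT, MISS WT and MISS KO: Aars ranked first, Yars second, Cars2 second to last and Pars2 last of the 38 in each.

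The same contrast in the MISS line was called for 0 of 38 members by limma, against 0.901% of all genes. At an unadjusted p under 0.05 (limma) it held 0 cytosolic enzymes and 1 mitochondrial enzyme, against 2902 of all 27071 genes. It ran from −0.39 ± 0.31 for Cars to 0.35 ± 0.10 for Iars2 (limma adjusted p = 0.128). The 95% interval lay within 2-fold for 19 of 20 cytosolic enzymes, all but Cars (−1.03 to 0.26), and for 16 of 16 mitochondrial enzymes. Iars2 lay at 0.94, 0.99, 0.87 and 0.95 in MISS KO with placebo and at 0.97, 0.89, 1.04 and 0.98 with E2, with overlap. With the slide as a block its difference was called (limma adjusted p = 0.0441). That fit called 287 of all 27071 genes higher and 833 lower, against 67 and 177 without the block. Between MISS KO and MISS WT, 0 of 38 members were called with placebo (0.887% of all genes) and 0 of 38 with E2 (2.82% of all genes). At an unadjusted p under 0.05 (limma) there were 0 members with placebo and 1 with E2. Over all 27071 genes there were 3011 and 3481. Iars2 was called higher in MISS KO with E2 when the slide was a block (0.23, limma adjusted p = 0.0385). Over all 27071 genes that fit called 743 higher and 1272 lower, against 237 and 527 without the block.

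The wild types of the 2 lines differed in the size of the response for 4 cytosolic enzymes, all larger in MISS WT. Over all genes the signed difference, MISS WT minus AF2 WT, was called positive for 6.39% and negative for 3.11% (9.5% in either direction). Of the mitochondrial enzymes 0 were called, with 2 at an unadjusted p under 0.05 (limma), against 6287 of all 27071 genes. Nars went from 1.24, 0.99, 1.27 and 1.12 to 4.33, 4.19, 4.63 and 4.17 in MISS WT, and its response was larger than in AF2 WT by 0.69 ± 0.16. Mars went from 0.15, 0.24, 0.20 and 0.52 to 2.43, 2.59, 2.65 and 2.68 in AF2 WT and from 0.01, 0.21, 0.28 and 0.06 to 2.95, 2.99, 3.05 and 3.00 in MISS WT, a difference of 0.54 ± 0.14. In both genes the E2 arrays of MISS WT lay above those of AF2 WT. Lars went from 2.65, 2.72, 2.67 and 2.81 to 4.40, 4.44, 4.57 and 4.42 in AF2 WT and from 2.49, 2.55, 2.66 and 2.60 to 4.75, 4.86, 4.84 and 4.46 in MISS WT (0.41 ± 0.11). Farsb went from 1.95, 1.92, 1.87 and 2.20 to 3.09, 3.33, 3.17 and 3.34 in AF2 WT and from 2.15, 2.06, 2.13 and 2.19 to 3.75, 3.78, 3.72 and 3.75 in MISS WT (0.37 ± 0.11). The median difference was 0.25 over the cytosolic enzymes and 0.11 over all genes. The calls of Lars and Farsb depended on the processing. Quantile normalization lost Lars (0.30, limma adjusted p = 0.169) and Farsb (0.25, limma adjusted p = 0.307), as did the authors' value table (limma adjusted p = 0.131 and 0.291) and the groups compared alone (limma adjusted p = 0.0898 and 0.104). Lars was also lost without replicate 3 of MISS WT with E2 (limma adjusted p = 0.0521). Farsb was also lost under normexp (limma adjusted p = 0.0553), without the filter on dim probes (limma adjusted p = 0.0606) and on leaving out any of 12 single arrays (limma adjusted p = 0.0508 to 0.0941). These were the 4 E2 arrays of MISS WT, replicates 1, 2 and 3 of its placebo arrays, replicates 1 and 4 with placebo and 1 and 3 with E2 of AF2 WT, and replicate 1 of AF2 KO with placebo. With the slide as a block, 7 cytosolic and 2 mitochondrial enzymes had a larger response in MISS WT, adding Eprs (0.65), Gars (0.60), Iars (0.28), Rars2 (0.42) and Tars2 (0.35), and so did Aimp1 (0.35). Over all 27071 genes that fit called 4185 positive and 1640 negative, against 1731 and 841 without the block. The line and the substrain cannot be told apart here. With placebo, 0 of 38 members were called between the wild types, against 11.7% of all genes. At an unadjusted p under 0.05 (limma) there were 3 members, against 6403 of all 27071 genes. With the slide as a block, Kars (0.25, limma adjusted p = 0.0016) and Pars2 (0.23, limma adjusted p = 0.0457) were called higher in MISS WT and Hars2 (−0.26, limma adjusted p = 0.0322) lower. That fit called 1687 of all 27071 genes higher and 3968 lower, against 823 and 2332 without the block.

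The responses were also set beside the motif near the start sites. The 5 cytosolic enzymes with a CARE had changes of 2.36 to 3.92 in AF2 WT (median 2.86), and the 8 without one in their window had changes of 0.03 to 2.31 (median 1.37). In MISS WT the medians were 3.12 and 1.57, and in MISS KO 2.96 and 1.36. In AF2 KO they were −0.01 and −0.04. These are descriptions of 13 genes with a window, and no test was made. The other cytosolic enzymes, Cars and Nars among them, were not searched. Atf4 itself went from 4.99 to 5.17 with placebo to 7.70 to 8.19 with E2 in AF2 WT and lay at 5.05 ± 0.04 (SD, n = 3) in AF2 KO with E2. Its change was 2.91 ± 0.14 in AF2 WT, 0.05 ± 0.16 in AF2 KO (limma adjusted p = 0.919), 2.54 ± 0.14 in MISS WT and 2.41 ± 0.14 in MISS KO. In AF2 WT 27.6% of all genes were called higher and 30% lower. Of 24 genes listed as Atf4 and its amino acid programme, 23 rose and 0 fell there, with a median of 2.82. The largest changes were those of Mthfd2, a mitochondrial folate enzyme (6.51 ± 0.29), and Chac1, a glutathione-degrading enzyme (6.37 ± 0.24).

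Genes that work beside the synthetases gave a mixed picture. Of 15 charging partners, 8 rose and 5 fell in AF2 WT, with a median of 0.35, against 27.6% of all genes higher and 30% lower. Eef1e1, a further protein of the complex, rose by 2.53 ± 0.11. Mitochondria have no glutaminyl enzyme of their own and use an amidotransferase of Qrsl1, Gatb and Gatc products in its place; these genes were picked after their values were seen. Qrsl1 rose by 1.59 ± 0.08, Gatb fell by 0.66 ± 0.07 on the log2 scale, and Gatc rose by 0.44 ± 0.13. Of 38 genes for tRNA transcription, processing and export, 27 rose and 2 fell, with a median of 0.72. They were led by Trmt61a, a tRNA methyltransferase subunit (2.95 ± 0.11), and Polr3d, a subunit of RNA polymerase III (2.45 ± 0.10). Of 10 mitochondrial translation factors, 4 rose and 3 fell, with a median of 0.11, a count near the 57.6% of all genes called in either direction. Tsfm changed by 1.65 ± 0.22 and Gfm1 by 1.27 ± 0.09.

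Markers of cell types were read beside these counts, with 27.6% of all genes called higher and 30% lower in AF2 WT (57.6% in either direction). Of 12 stromal markers 11 were lower in AF2 WT, with a mean level of 4.30 to 4.58 on placebo arrays and 3.26 to 3.61 on E2 arrays. In AF2 KO 3 of the 12 were lower, where 3.68% of all genes were called in either direction, with means of 4.47 to 4.78 and 4.05 to 4.31. In MISS WT 6 of the 12 and in MISS KO 7 were lower, against 27.1% and 27.2% of all genes. Of 15 epithelial markers 7 were higher and 1 lower in AF2 WT, with means of 1.89 to 2.11 and 2.27 to 2.53. With placebo, 6 of the 15 were higher and 1 lower in AF2 KO than in AF2 WT, against 9.04% of all genes called. The means in AF2 KO with placebo were 2.28 to 2.39. With E2, 5 were higher and 4 lower in MISS WT (35.1% and 27.1% of all genes). In MISS KO 6 were higher and 1 lower (30.1% and 27.2% of all genes). The most changed stromal markers were Lum (−1.85 ± 0.18) and Mfap4 (−1.34 ± 0.26), and the most changed epithelial ones Elf3 (2.67 ± 0.16) and Krt7 (2.25 ± 0.21). Of 10 smooth muscle markers 2 were lower in AF2 WT (Smtn, −0.72 ± 0.17, and Myocd, −0.35 ± 0.14), while in MISS WT 7 were higher and 1 lower, against 35.1% and 27.1% of all genes. Of 10 endothelial markers 3 were higher and 2 lower, led by Eng (2.53 ± 0.13) and Cldn5 (−2.01 ± 0.14). Of 11 leukocyte markers 2 were higher and 3 lower, led by Ly6g (1.90 ± 0.49) and Adgre1 (−0.92 ± 0.34). In AF2 WT the shares of epithelial, smooth muscle, endothelial and leukocyte markers called in either direction lay below that of all genes. The part of cell composition in the synthetase changes was not tested. In whole tissue, fewer cells of a type and less RNA per cell cannot be told apart.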

How the data were processed

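Per the file headers, the authors deposited 1 Agilent Feature Extraction file per array, whose processed signal is an intensity with background subtracted and not normalized between arrays, with 0/1 scores for outliers, saturation and a signal well above background. Feature Extraction 10.10.1.1 and limma (no version) are named per the submitters' processing notes. The authors also deposited a value table on the log2 scale with 43753 probes, 83 empty cells and column medians of 7.56; how it was normalized is not given in the sources used here.

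Of 62976 spots, 59305 were not controls. The 5399 outlier spots over all arrays were left out, spots of each of 55681 probes were averaged, and the 75th percentile of each array was subtracted on the log2 scale. Probes well above background on all arrays of at least 1 group were kept (40348), with the brightest per gene (27071). Through RefSeq, 27235 accessions of the annotation were named, which changed 2838 names. Group means were fitted with limma 3.58.1 in R 4.3.3 (lmFit, eBayes; 23 residual degrees of freedom, prior 2.38), with Benjamini-Hochberg adjustment and a threshold of 0.05; ratios of gene pairs were compared by exact permutation. The fit was tested on simulated data.

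Members and lists were chosen with earlier results of these data known. Array values are printed for the members with the largest E2 changes in AF2 WT (6 cytosolic, 4 mitochondrial), the scaffold genes, members that fell or were not called, and members that differed between lines, and changes for the 2 leading genes of each other list; the complex grouping and the amidotransferase genes were added after values were seen. The values of a further gene of those lists and a further sequence are not reported here. Alternatives were normexp (offset 50), quantile normalization, stricter and no filters, the mean of the probes of a gene, the slide as a block, eBayes with trend and robust settings, the groups compared alone, the authors' value table and each array left out. Replicate numbers follow the order of deposition.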

Additional observations from a re-analysis of the deposited data

Results flagged for a closer look

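Dixon's test looked at 280 groups of 4 arrays and found an array far from the other 3 in 15. Chance alone gives about 1 group in 20. Of these 15 values, 11 lay on slide 4. Farsa was 3.25 on replicate 3 of MISS KO with E2, against 3.46 to 3.50 on the other arrays. On replicate 4 of AF2 WT with placebo, Gars lay at 4.48, with the others at 4.94 to 5.01. Nars was 4.11 on replicate 4 of AF2 WT with E2, against 3.82 to 3.85 on the other arrays. On replicate 1 of AF2 WT with placebo, Vars lay at 1.92, with the others at 1.54 to 1.60. Cars2 was 1.02 on replicate 3 of AF2 KO with placebo, against 1.20 to 1.23 on the other arrays. On replicate 4 of AF2 WT with placebo, Hars2 lay at 2.27, with the others at 2.84 to 2.85. Hars2 was 2.16 on replicate 4 of AF2 WT with E2, against 2.64 to 2.73 on the other arrays. On replicate 3 of MISS KO with E2, Mars2 lay at −2.10, with the others at −1.79 to −1.78. Rars2 was 1.57 on replicate 4 of AF2 KO with placebo, against 1.86 to 1.91 on the other arrays. On replicate 4 of MISS KO with placebo, Rars2 lay at 1.54, with the others at 1.80 to 1.83. Vars2 was 0.082 on replicate 4 of MISS KO with placebo, against 0.47 to 0.52 on the other arrays. On replicate 4 of AF2 WT with placebo, Aimp1 lay at 3.04, with the others at 3.42 to 3.44. Aimp1 was 3.80 on replicate 4 of MISS WT with E2, against 3.96 to 3.97 on the other arrays. On replicate 4 of MISS KO with placebo, Aimp1 lay at 3.12, with the others at 3.35 to 3.38. The mean of the cytosolic enzymes was 1.68 on replicate 4 of AF2 WT with placebo, against 1.73 to 1.74 on the other arrays.

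The log2 response to E2 differed by genotype or line for 33 pairs of a member and a comparison, by the limma test of the difference itself. As AF2 KO minus AF2 WT, the cytosolic enzymes that differed were Aars (−4.11), Cars (−2.84), Dars (−0.63), Eprs (−1.68), Farsa (−1.42), Farsb (−1.43), Gars (−2.28), Hars (−1.45), Iars (−2.97), Kars (−1.02), Lars (−1.83), Mars (−2.55), Nars (−2.52), Rars (−1.93), Sars (−1.78), Tars (−2.87), Vars (−1.23), Wars (−1.10) and Yars (−3.45). The mitochondrial enzymes and the scaffold gene that differed were Aars2 (−0.61), Aimp2 (−1.90), Cars2 (0.56), Ears2 (−1.24), Iars2 (0.28), Mars2 (−1.86), Pars2 (0.68), Rars2 (−0.73), Sars2 (−0.65) and Yars2 (−1.99). As MISS WT minus AF2 WT, Farsb (0.37), Lars (0.41), Mars (0.54) and Nars (0.69) differed.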

How the results depend on the processing

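No fit used the replicate numbers as a block, since they follow the order of accession and pair no animals; the slide was fitted as a block instead. Apart from the values given here, the counts of called enzymes stayed within 1.5 times. Where a value changed, the cause was not tested. Normexp called 1 cytosolic and 2 mitochondrial enzymes between the AF2 genotypes with placebo, 1 mitochondrial enzyme for the response of the wild types, and 1 and 2 between the wild types with placebo. Quantile normalization called 14 mitochondrial enzymes in AF2 WT and 1 between the AF2 genotypes with placebo, 2 cytosolic enzymes for the response of the wild types, and 2 cytosolic and 1 mitochondrial between them with placebo. The slide as a block called 1 cytosolic and 1 mitochondrial enzyme in AF2 KO, 1 mitochondrial for the MISS difference of responses and 1 for MISS KO against MISS WT with E2. It called 2 and 3 between the AF2 genotypes with placebo, 7 and 2 for the response of the wild types, and 1 and 2 between them with placebo. With the block, more of all genes were called as well, higher and lower, in each comparison. The authors' value table called 1 mitochondrial enzyme between the AF2 genotypes with placebo and, between the wild types, 2 cytosolic enzymes for the response and 1 with placebo. The mean of the probes called 1 mitochondrial enzyme for the AF2 genotypes with placebo and 1 for the response of the wild types, and the groups compared alone called 2 cytosolic enzymes for the latter.

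The cytosolic medians under normexp were 1.67 in AF2 WT, 2.09 in MISS KO, −1.65 for the AF2 difference of responses (mitochondrial 0.038, a changed sign) and −1.66 for AF2 KO against WT with E2. Under quantile normalization the cytosolic and mitochondrial medians were 1.5 and −0.12 in AF2 WT, 1.78 and −0.12 in MISS WT (changed sign), 1.77 and 0.014 in MISS KO, −1.55 and 0.0038 for the AF2 difference (changed sign) and −1.58 and −0.13 for AF2 KO against WT with E2. The cytosolic median was −0.019 for MISS KO against WT with E2 and 0.15 for the response of the wild types. The authors' value table gave 1.42 and −0.13 in AF2 WT, 1.65 and −0.089 in MISS WT (changed sign), 1.73 and 0.0014 in MISS KO, −1.49 and 0.0093 for the AF2 difference (changed sign) and −1.46 and −0.12 for AF2 KO against WT with E2. It gave cytosolic medians of 0.022 for the MISS difference (changed sign) and 0.14 for the wild types. The strict filter gave mitochondrial medians of 0.090 in MISS WT and 0.023 for the AF2 difference (changed sign). Quantile normalization moved the median of all genes from 0.18 to 0.04 in the AF2 difference and from 0.16 to 0.06 in MISS WT.

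Signs of single genes turned under quantile normalization for Aimp1 (−0.20) and Qars (−0.43) in AF2 WT, Tars2 in MISS WT (−0.19), Qars (−0.44) and Tars2 (−0.26) in MISS KO, Aimp1 (0.24) and Qars (0.35) for the AF2 difference, and Aimp1 (0.21) and Qars (0.42) for AF2 KO against WT with E2. With the authors' value table they turned for Aimp1 (−0.20) and Qars (−0.43) in AF2 WT, Tars2 in MISS WT (−0.16), Qars in MISS KO (−0.49), Qars for the AF2 difference (0.35), and Aimp1 (0.18) and Qars (0.42) for AF2 KO against WT with E2.

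Leaving out each array in turn gave 0 to 1 cytosolic and 0 to 1 mitochondrial enzymes between the AF2 genotypes with placebo, 0 to 1 of each between the wild types with placebo, and 2 to 4 and 0 to 1 for the response of the wild types. The medians ran from 1.68 to 1.76 (cytosolic, AF2 WT), 2.03 to 2.21 (cytosolic, MISS WT), −1.88 to −1.75 and −0.16 to −0.036 (cytosolic and mitochondrial, AF2 difference), −0.16 to −0.017 and −0.083 to 0.016 (MISS difference), −0.27 to −0.15 (mitochondrial, AF2 KO against WT with E2), and 0.17 to 0.33 and 0.071 to 0.19 (response of the wild types). Dim probes limit Nars2, which was above background on 27 of 31 arrays.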

Other observations

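Genes that work beside the synthetases were also compared in the mutants. In AF2 KO, 0 of 38 genes for tRNA transcription, processing and export and 0 of 15 charging partners were called, against 3.68% of all genes. At an unadjusted p under 0.05 (limma) there were 5 and 1, against 4692 of all 27071 genes. Xpot, which exports tRNA from the nucleus, changed by 2.36 ± 0.13 in AF2 WT and −0.01 ± 0.14 in AF2 KO. The response differed from AF2 WT for 28 of the 38 tRNA genes in the lower direction and for 2 in the higher one, against 22.9% and 29% of all genes. In MISS KO, 28 of the 38 tRNA genes rose and 2 fell, against 30.1% of all genes called higher and 27.2% lower. Gatb, a subunit of the mitochondrial amidotransferase, fell by 1.07 ± 0.07 on the log2 scale in MISS WT and by 1.05 ± 0.07 in MISS KO, while Qrsl1, which encodes its partner subunit, rose by 1.73 ± 0.08 and 1.95 ± 0.08. Chac1 changed by 6.37 ± 0.24 in AF2 WT and by 3.45 ± 0.24 in MISS WT, a difference of −2.91 ± 0.35 (limma adjusted p = 8.64e-06).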
